A study of Triticum aestivum and Triticum urartu and Aegilops speltoides with 12 samples.

Results

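Rye was compared with Aegilops speltoides on 4 of the 12 arrays of the series, the 2 arrays titled for rye RNA and the 2 titled for B genome RNA, and the result was split by the species prefix of each feature ID. The members were chosen by these titles and prefixes, with no level as a criterion, though earlier results of these data were known. Rye (Secale cereale) and Ae. speltoides, which the labels present as the wild source of the wheat B genome, were both diploid, and neither carried a treatment or a transgene. The accessions or cultivars were not stated in the labels, so how many lines stood for each species is unknown here. Each array held Cy3-labelled total RNA from 2 whole seedlings, leaf and root together, taken after 10 days at the stage with 3 leaves, and the replicate arrays came from separate RNA samples. The other 8 arrays, used for the spread estimate and for levels beside the comparison, held Triticum urartu (A genome), Aegilops tauschii (D genome), hexaploid bread wheat and a hexaploid wheat line with the 2BS.2RL wheat-rye translocation. The array read 56855 plant features, of which 56843 had 2 probes of 60 bases and 12 had 1 probe. The prefix named the species of the sequence a feature was designed from: 42683 came from bread wheat, 5731 from rye, 5724 from Triticum monococcum, 2489 from Ae. speltoides, 114 from Ae. tauschii and 114 from Ae. squarrosa, an older name of Ae. tauschii.

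Rye and the goatgrasses of the genus Aegilops belong to the same grass tribe as wheat, the Triticeae, and much of their transcribed sequence is shared. Rye carries the R genome and was taken into wheat breeding through translocated chromosome arms. Aegilops speltoides carries the S genome, the closest living relative of the wheat B genome, and T. monococcum (einkorn) carries an A genome close to that of T. urartu. A probe designed from one species reads the transcript of another less well where the sequences differ, so a difference between plants on such an array can be one of transcript level or of probe match. These were not separated in any comparison that follows. The files pair no feature with a gene name and none of the IDs matched the wheat gene table used here (0 matches), so features are given by ID, gene groups could not be formed, and leaf and root markers could not be looked up.

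All levels are log2 intensities, on which a difference of 1 is 2-fold. Replicate arrays correlated at r = 0.975 for rye and 0.968 for Ae. speltoides across features, and at 0.984 to 0.99 in the 4 other plants. Pairs of a rye with an Ae. speltoides array correlated at 0.861 and 0.865 for Ae. speltoides replicate 1. For replicate 2 they correlated at 0.878 and 0.883, so replicate 2 was nearer to rye. These are descriptions across features, which are not replicates of a condition. The median SD between replicates was 0.19 in rye and 0.15 in Ae. speltoides. In the brightest 25% of features it was 0.14 and 0.10, and in the dimmest 25% it was 0.25 and 0.23. Background was read from a control feature that summarises 6570 random probes. It lay at 7.34 and 7.47 on the rye arrays and at 7.30 and 7.25 on the Ae. speltoides arrays, so the 2 plants had nearly the same background, against 6.47 to 7.07 on the other 8 arrays.

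By the median levels of rye and Ae. speltoides sequences, the rye and Ae. speltoides arrays fitted their species labels. Some features read near the rye level on Ae. speltoides replicate 2, as given under other observations. Features from rye sequences had median levels of 12.20 and 12.18 on the rye arrays, 11.58 and 11.53 on the Ae. speltoides arrays, and 11.42 to 11.56 on the 8 others. Both rye arrays thus stood above all 10 others. Features from Ae. speltoides sequences had medians of 12.17 and 12.11 on the Ae. speltoides arrays and 11.91 and 11.89 on the rye arrays. The 8 other arrays gave 11.80 to 11.90. Features from bread wheat sequences were lower throughout, at 10.11 and 10.13 in rye and 10.20 and 10.22 in Ae. speltoides. They were at 10.28 on both wheat arrays and slightly higher, at 10.30, on both Ae. tauschii arrays. Features from Ae. tauschii sequences had medians of 11.11 and 10.84 on the Ae. tauschii arrays. Ae. speltoides replicate 2 lay between these, at 10.89. Features from T. monococcum sequences were highest on the T. urartu arrays, at 12.17 and 12.15.

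In rye 4948 features were higher than in Ae. speltoides and 5386 were lower, 10334 of 56855 in all. A feature was called where limma's Benjamini-Hochberg adjusted p over all features fell under 0.05 and the plants differed by a log2 of 1 or more. These calls were 18.2% of all features, with 8.7% higher and 9.47% lower in rye. The balance of the directions is not settled: with arrays centred on the median of the bread wheat features, 5613 were higher and 4910 lower, and without rye replicate 2 there were 5375 and 5028. Of the higher features 3157 differed by a log2 of 1 to 2, 1418 by 2 to 4 and 373 by 4 or more, and of the lower ones 3201, 1796 and 389 did. In whole seedlings, fewer cells of a type and less RNA per cell cannot be told apart.

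The sequence source divided these calls. Features from rye sequences were higher in rye in 1326 of 5731 cases (23.1%, against 8.7% of all features) and lower in 52 (0.907%, against 9.47%). Features from Ae. speltoides sequences went the other way, with 58 of 2489 higher in rye (2.33%) and 278 lower (11.2%). The calls of each set were thus mostly brighter in the plant its sequences came from, and the number of opposite calls in the rye set moved with 1 array: without Ae. speltoides replicate 2 that set gave 1400 higher and 151 lower, and the Ae. speltoides set gave 72 and 354. Rye sequences made up 10.1% of all features, 26.8% of those higher in rye and 0.965% of those lower. Sequences from Ae. speltoides made up 4.38% of all features, 1.17% of those higher and 5.16% of those lower.

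**Figure D1:**
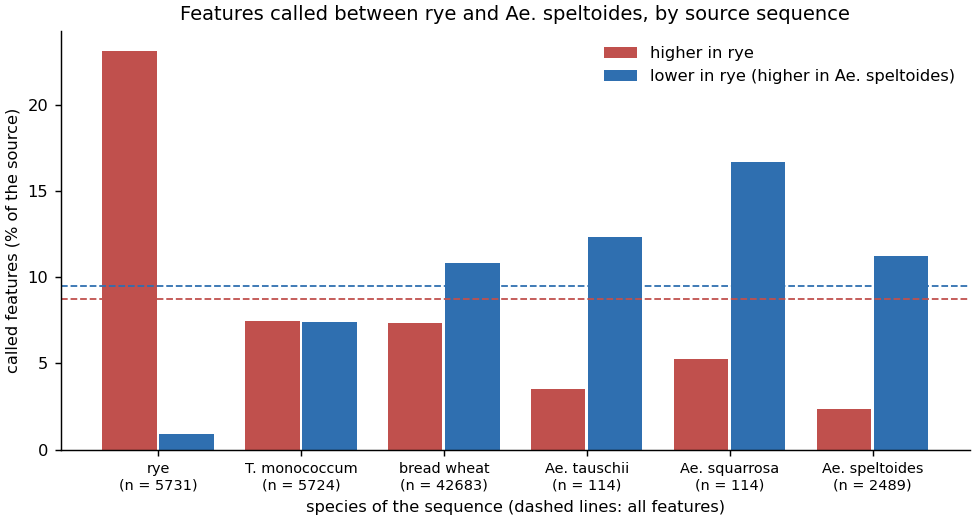
Bars give the share of each source's features, in percent, that were called higher (red) or lower (blue) in rye than in Ae. speltoides, with the number of features under each species, and dashed lines give the shares over all features (8.7% and 9.47%). Rye sequences stand at 23.1% higher and 0.907% lower, and Ae. speltoides sequences at 2.33% and 11.2%.

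The rye-derived features differed as a body and not in the called ones alone. Their median difference was 0.41 (quartiles 0.10 and 0.95), and 82.2% of them had a difference above 0, against a median of 0.07 and 55.3% over all features. The median kept its sign on every pair of arrays, from 0.41 to 0.45, and under every scaling tried, from 0.27 to 0.49. For the Ae. speltoides-derived features the median was -0.10 (quartiles -0.51 and 0.23), and 42.3% lay above 0. That median ran from -0.14 to -0.09 over the array pairs. It was -0.23 with the random control as the scale and -0.01 when they were centred on the bread wheat features, so most of this source differed little between the plants, and its calls came from a long lower tail. The 5th and 95th percentiles were -2.14 and 0.68 for Ae. speltoides sequences and -0.42 and 3.53 for rye sequences.

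**Figure D2:**
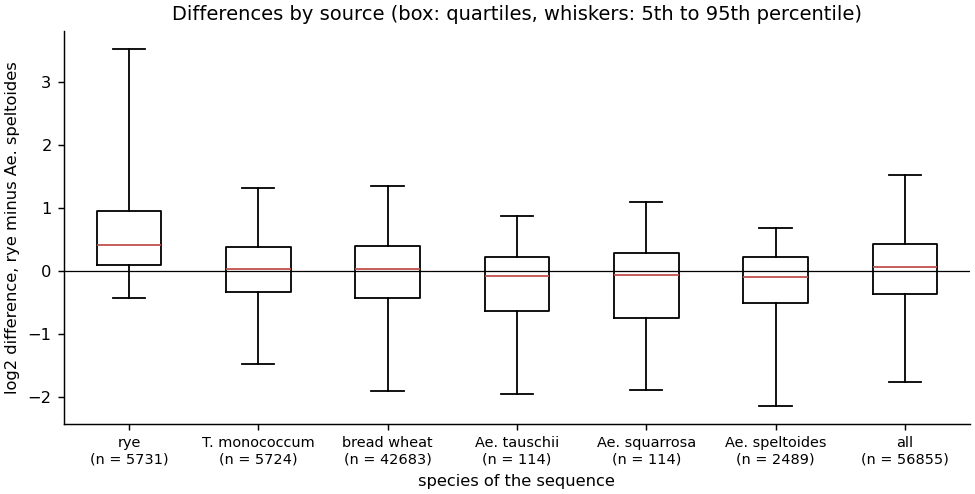
The log2 difference of rye minus Ae. speltoides is shown for the features of each source species and for all features. The line is the median, the box the quartiles and the whiskers the 5th and 95th percentiles over features. The rye sequences alone have a lower quartile above 0 (0.10).

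Among called features from rye sequences that were above the random control on all 4 arrays, Scereale_ESTC005024 was highest by difference. It lay at 13.39 and 13.36 on the rye arrays and at 7.46 and 7.89 on the Ae. speltoides arrays, a log2 difference of 5.70 ± 0.25 (SE, n = 2 arrays a group, limma adjusted p = 5.03e-07). The Ae. speltoides arrays were close to their background. T. urartu averaged 8.08 and Ae. tauschii 7.57, while wheat (11.48) and the translocation line (11.31) lay between. Scereale_ESTC005537 lay at 13.03 and 12.82 in rye and at 7.61 and 7.32 in Ae. speltoides, a difference of 5.46 ± 0.22 (limma adjusted p = 3.7e-07). It was at background in T. urartu and Ae. tauschii and averaged 8.53 and 8.73 in the hexaploid lines, so only rye was bright.

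Rye-derived features lower in rye were few, and their largest differences were smaller. None of the 52 differed by a log2 of 4 or more, and 36 differed by less than 2. Scereale_ESTC003844 lay at 9.42 and 8.78 in rye and at 12.20 and 12.07 in Ae. speltoides, a difference of -3.04 ± 0.38 (limma adjusted p = 0.000302). T. urartu was also high (11.24), Ae. tauschii (8.80) was near rye, and both hexaploid lines were lower still (7.10 and 7.60). Scereale_ESTC000456 lay at 9.82 and 9.41 in rye and at 13.75 and 10.99 in Ae. speltoides, a difference of -2.76 ± 0.68 (limma adjusted p = 0.0126). Here the Ae. speltoides arrays were far apart, and all 8 other arrays lay between 12.99 and 13.45. Its call was lost without rye replicate 2 (limma adjusted p = 0.0664) and in a fit of the 4 arrays alone (limma adjusted p = 0.111), and its difference was -1.38 without Ae. speltoides replicate 1 and -4.14 without replicate 2. The count of 52 rested on Ae. speltoides replicate 2 as well. With that array left out it was 151, of which 42 were among the 52. The medians of those 151 were 9.36 and 9.28 on the rye arrays, 11.77 on Ae. speltoides replicate 1 and 9.52 on replicate 2, so the latter read them near the rye level.

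**Figure D3:**
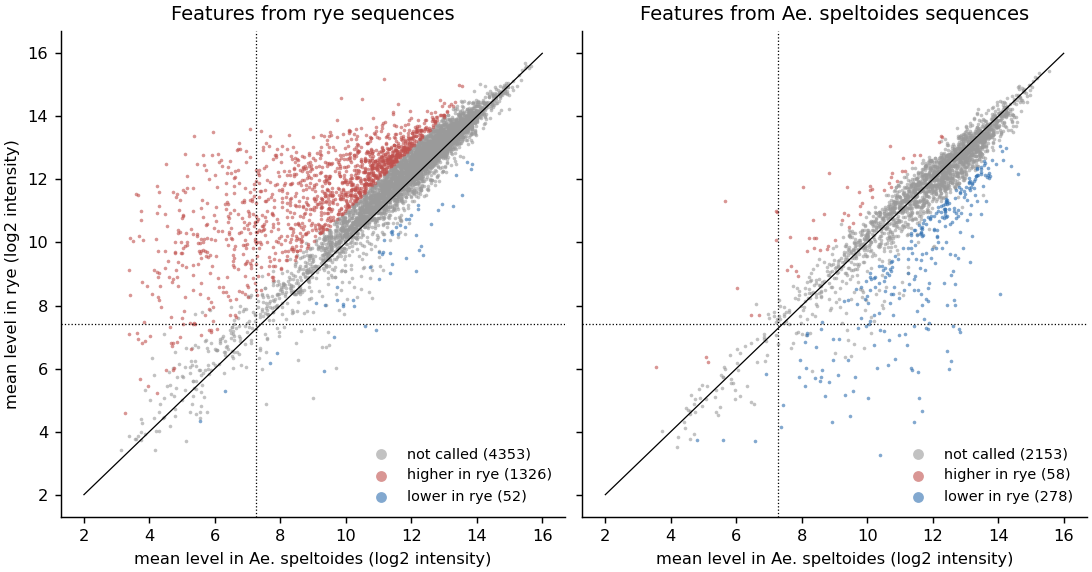
Each point is a feature, with its mean level (log2 intensity, n = 2 arrays) in Ae. speltoides across and in rye upwards, for rye sequences on the left and Ae. speltoides sequences on the right. Dotted lines mark the random control, and the solid line marks equal levels. Calls higher in rye (red, 1326 and 58) lie above the line and calls lower in rye (blue, 52 and 278) below it.

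Of the Ae. speltoides-derived features lower in rye, Aspeltoides_ESTC002446 differed most among those above background on all 4 arrays. It lay at 8.20 and 8.52 in rye and at 14.11 and 13.99 in Ae. speltoides, a difference of -5.69 ± 0.21 (limma adjusted p = 2.28e-07). None of the 4 plants outside the comparison averaged above 7.95, so Ae. speltoides alone was bright. Aspeltoides_ESTC000462 lay at 8.20 and 7.86 in rye and at 12.72 and 12.63 in Ae. speltoides, a difference of -4.64 ± 0.16 (limma adjusted p = 1.95e-07). In this feature rye alone was dim, since the other 4 plants averaged 11.58 to 12.54. In the opposite direction, Aspeltoides_ESTC000947 lay at 12.02 and 11.52 in rye and at 7.97 and 8.14 in Ae. speltoides, a difference of 3.71 ± 0.19 (limma adjusted p = 1.32e-06). It was as high in T. urartu (12.06) and between 10.02 and 10.66 in the 3 others, so the plant of its own sequence was the dimmest of all 6. Aspeltoides_ESTC002050 gave 12.51 and 11.92 in rye and 8.85 and 8.81 in Ae. speltoides, a difference of 3.38 ± 0.24 (limma adjusted p = 8.32e-06). T. urartu (8.41) was near Ae. speltoides, and the 3 remaining plants averaged 10.44 to 11.04. These 58 features were mostly small differences: 45 were under a log2 of 2, and 1 reached 4.

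Sequences from species other than the compared plants came mostly from bread wheat, which made up 75.1% of all features. Bread wheat includes the B genome, whose closest living relative is that of Ae. speltoides. Whether bread wheat features match the transcripts of the compared plants equally well was not tested. Of these 42683 features 3128 were higher in rye (7.33%, against 8.7% of all features) and 4598 lower (10.8%, against 9.47%), with a median difference of 0.04 that became -0.10 with the random control as the scale. The excess of lower over higher calls stayed under every scaling, at its least with 3602 higher and 4195 lower. The lower calls reached further, with 328 at a log2 of 4 or more against 142 of the higher ones. The 5724 features from T. monococcum were balanced, with 426 higher (7.44%), 425 lower (7.42%) and a median of 0.03. This balance moved with the scaling, to 344 higher and 530 lower on the random control and 476 and 386 on the bread wheat features. The 228 features from Ae. tauschii and Ae. squarrosa gave 10 higher and 33 lower, and 16 higher and 26 lower without rye replicate 2. By source these were 3.51% higher and 12.3% lower for Ae. tauschii and 5.26% and 16.7% for Ae. squarrosa, against 8.7% and 9.47% of all features, over 114 features each.

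Levels in the 4 other plants, whose arrays entered the fit only through its spread estimate, showed which of the compared plants stood apart. This description was chosen after the calls were seen. The 1326 rye-derived features higher in rye had a median level of 11.97 in rye and 9.59 in Ae. speltoides. All the rest lay near the latter, at 9.74 in T. urartu, 9.78 in Ae. tauschii, 9.79 in wheat and 9.66 in the translocation line. In 881 of these features (66.4%) all 4 other plants were closer to Ae. speltoides than to rye, and in 74 (5.58%) all 4 were closer to rye. The bread wheat-derived features higher in rye showed a different order, with 10.37 in rye, 8.37 in Ae. speltoides and 9.75 to 9.97 in the others. There all 4 other plants were closer to rye in 887 of 3128 (28.4%) and closer to Ae. speltoides in 577 (18.4%). Wheat was closer to rye in 1949 of the 3128 (62.3%) and the translocation line in 1918 (61.3%). T. urartu was closer to rye in 53.3% and Ae. tauschii in 53.0%.

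Among features lower in rye, the bread wheat-derived ones had medians of 8.69 in rye and 10.89 in Ae. speltoides, with 10.20 to 10.51 in the 4 others. T. urartu was closer to Ae. speltoides in 2735 of 4598, Ae. tauschii in 2797, wheat in 3313 and the translocation line in 3344. All 4 other plants were closer to it in 1793 (39.0%), against 568 (12.4%) in which all 4 were closer to rye. Rye was thus more often the plant apart. The 278 Ae. speltoides-derived features lower in rye had medians of 9.61 in rye, 11.79 in Ae. speltoides and 10.11 to 10.76 in the others, with T. urartu nearest to rye. T. urartu was closer to rye in 172 of them (61.9%), Ae. tauschii in 153 (55.0%), wheat in 145 (52.2%) and the translocation line in 151 (54.3%). In 90 (32.4%) all 4 were closer to rye and in 57 (20.5%) all 4 were closer to Ae. speltoides. These features therefore held both kinds, those bright in Ae. speltoides alone and those dim in rye alone, as the features described above show.

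**Figure D4:**
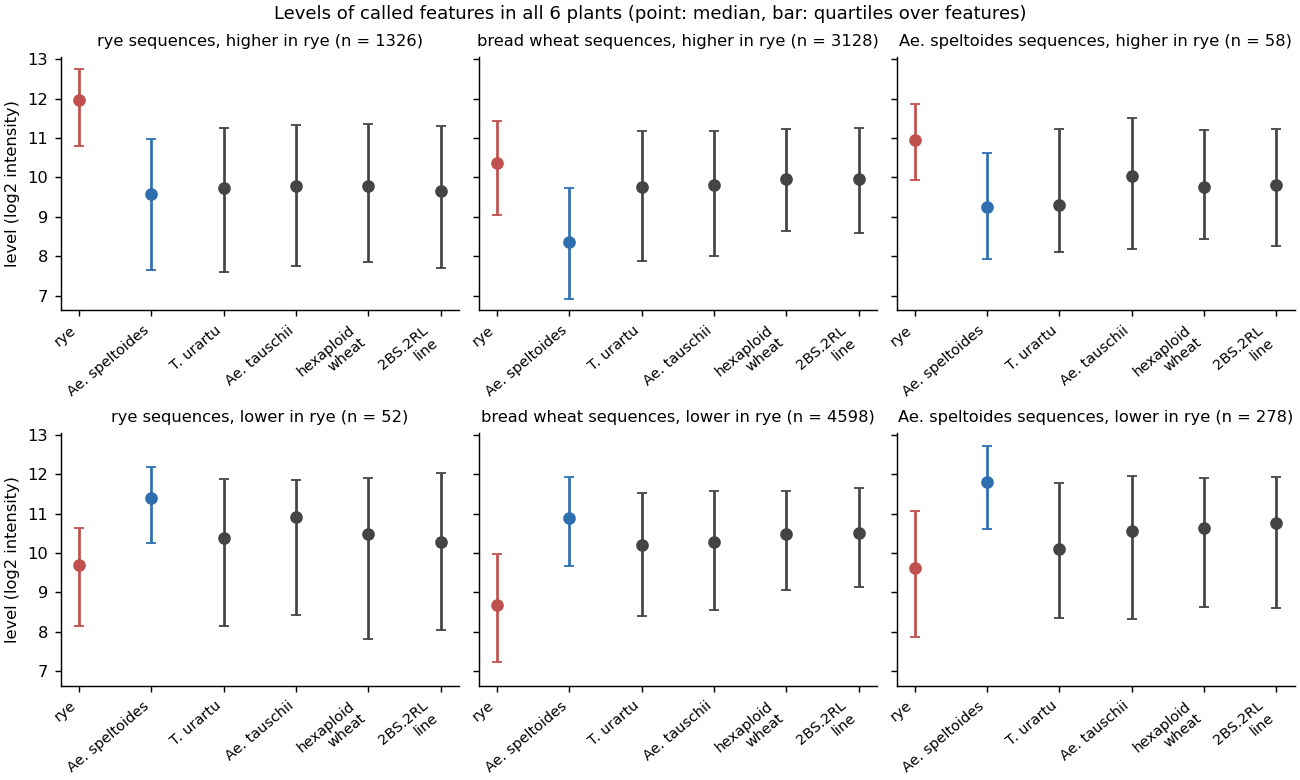
Points give the median level (log2 intensity) of a set of called features in each of the 6 plants and bars the quartiles over features, with rye in red and Ae. speltoides in blue. In the rye sequences higher in rye, the 5 other plants sit at 9.59 to 9.79 and rye at 11.97. In the bread wheat sequences lower in rye, rye sits at 8.69 and the others at 10.20 to 10.89.

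Einkorn-derived features followed T. urartu, their nearest relative on the arrays. In the 426 higher in rye the medians were 11.19 in rye, 9.37 in Ae. speltoides and 11.15 in T. urartu, and T. urartu was closer to rye in 314 (73.7%). In the 425 lower in rye they were 9.56, 11.44 and 11.75, and T. urartu was closer to Ae. speltoides in 357. In both directions T. urartu thus sat mostly with the brighter plant. Ae. tauschii was less one-sided, closer to rye in 209 of the 426 (49.1%) and in 140 of the 425 (32.9%). The translocation line, which its name gives a rye chromosome arm, averaged close to wheat. On the 1326 rye-derived features higher in rye the median difference of the translocation line minus wheat was 0.01. A median over all of them would not show a rise confined to a small part.

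Many called features were at background in the dimmer plant, that is at or below the random control on both of its arrays. This held in Ae. speltoides for 1207 of the 4948 features higher in rye (24.4%) and in rye for 1247 of the 5386 lower ones (23.2%). Over all features, called or not, 11.4% were at background in Ae. speltoides and 11.8% in rye. In 203 and 150 of these the brighter plant was at background too, which leaves no fold. In the remaining 1004 and 1097 the fold was at least 10 in 155 and 168, taking the random control as the level of the dimmer plant. Rye sequences were 259 of the 1207, which was 19.5% of their calls higher in rye, against 24.4% over all sources. In 117 of the 259 all 4 other plants were at background as well, against 82 of 854 for bread wheat sequences. In the set dim in rye, 620 of the 1247 were above background on at least 1 array of every other plant, and in 92 all 4 other plants were at background. The random control averaged 6.48 to 7.01 in those plants, against 7.41 in rye and 7.27 in Ae. speltoides. The same level could thus be at background in rye and above it elsewhere, so the counts for other plants do not share a cutoff.

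The brightest feature higher in rye with Ae. speltoides at background was Scereale_ESTC002023. It lay at 13.73 and 13.47 in rye and at 6.93 and 7.19 in Ae. speltoides, at least 80.3-fold higher (limma adjusted p = 6.03e-08). The other plants spread between, at 12.16 in T. urartu, 8.75 in Ae. tauschii, 10.85 in wheat and 11.34 in the translocation line. Scereale_ESTC004125 lay at 13.53 and 13.50 in rye and at 5.32 and 6.53 in Ae. speltoides, at least 75.6-fold higher (limma adjusted p = 3.73e-07). Ae. tauschii was bright (12.07), T. urartu lay at 8.20, and both hexaploid lines were at background. In the other direction Taestivum_ESTC036366 lay at 6.61 and 7.0 in rye and at 13.03 and 13.31 in Ae. speltoides, at least 54.2-fold lower in rye (limma adjusted p = 1.95e-07). Rye alone was dim, with 10.30 to 12.62 in the 4 other plants. Taestivum_ESTC032838 lay at 5.77 and 6.33 in rye and at 13.09 and 13.07 in Ae. speltoides, at least 51.0-fold lower in rye (limma adjusted p = 4.08e-07). It was at background in T. urartu, Ae. tauschii and wheat, and averaged 11.92 ± 0.17 (SD, n = 2) in the translocation line.

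**Figure D5:**
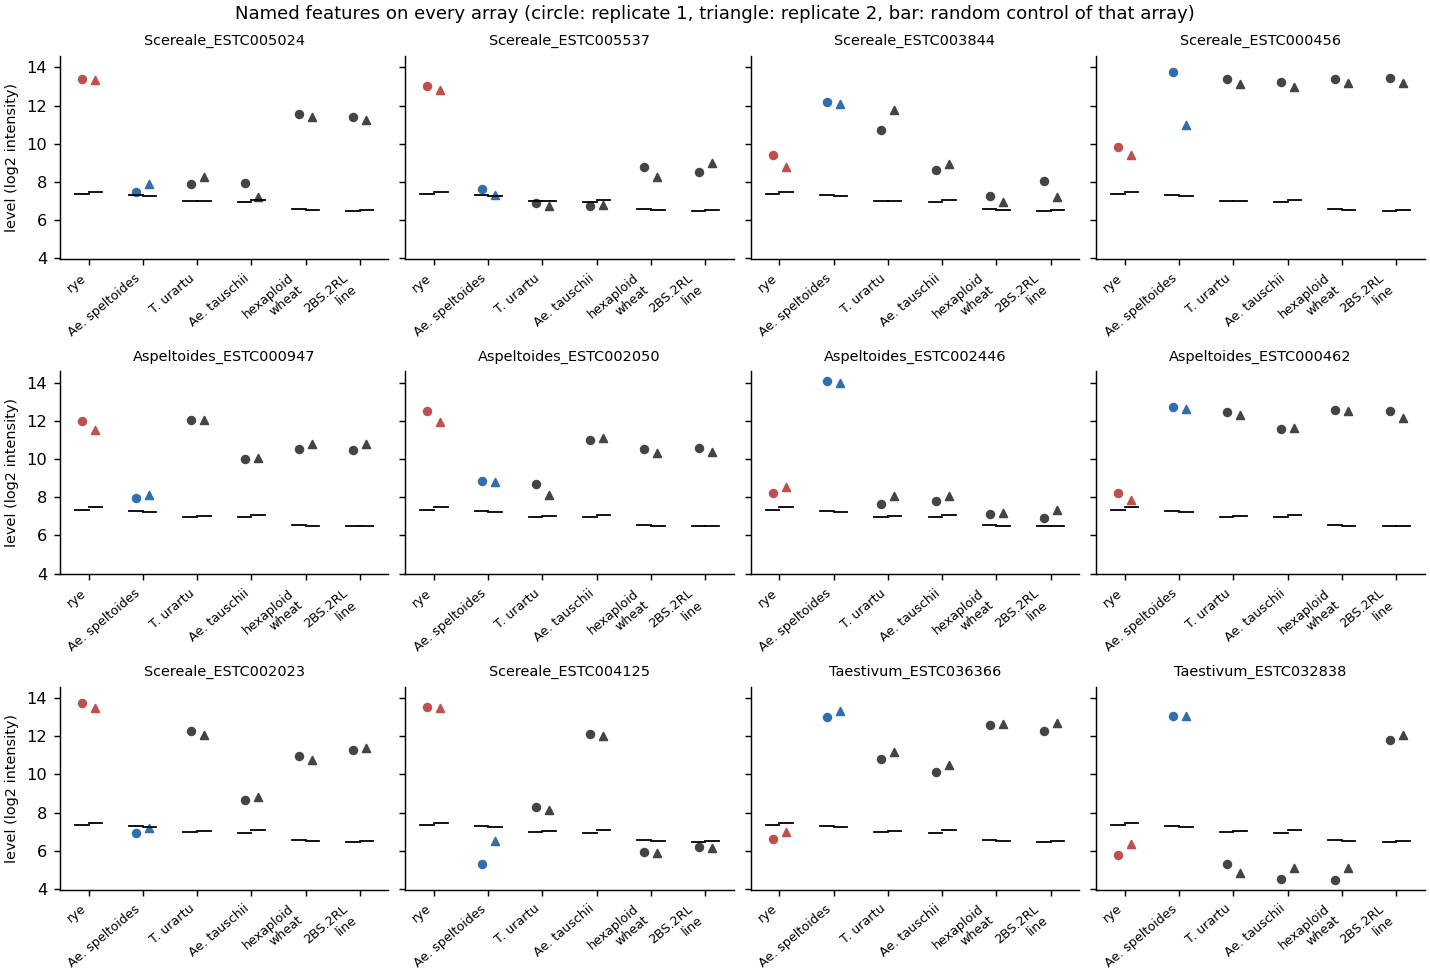
Each panel shows 1 named feature on all 12 arrays (log2 intensity), with circles for replicate 1, triangles for replicate 2 and short bars for the random control of the array. Rye is red and Ae. speltoides blue, and the features were picked for large differences between them. The 4 other plants (grey) mostly fall near either one or between them. The Ae. speltoides replicates of Scereale_ESTC000456 lie apart, at 13.75 and 10.99.

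Calls were fewest among bright features. In the brightest 25% of features by mean over the 4 arrays 6.59% were called, against 21.5% in the dimmest 25% and 26.9% in the 25% next above it. The mean includes the dimmer plant, so a large difference itself lowers a feature's place in this order. The rye sequences were higher in rye at both ends, in 280 of 2689 in the brightest 25% (10.4%, with 7 lower) and in 242 of 553 in the dimmest (43.8%, with 8 lower). For Ae. speltoides sequences 58 of 1258 were lower in rye in the brightest 25% (4.61%, with 6 higher) and 49 of 215 in the dimmest (22.8%, with 12 higher). Over all features the shares were 3.32% higher and 3.27% lower in the brightest 25%, and 10.9% and 10.6% in the dimmest. T. monococcum sequences gave 104 higher and 77 lower in the dimmest 25%, and 52 and 69 in the brightest.

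For many features the data bounded the difference in intensity as small. In 31517 features, 55.4% of all, the 95% interval of the difference lay wholly inside 2-fold. This was so for 66.9% of Ae. speltoides sequences, 65.3% of T. monococcum sequences, 54.6% of rye sequences and 53.6% of bread wheat sequences. Among the brightest 25% the share was 78.9% over all sources, and 72.6% for rye sequences. Among the dimmest 25% it was 35.2% over all sources. In 4748 features both plants were at background, and there an interval inside 2-fold does not bound a difference in transcript level. With the 4 arrays alone the interval lay inside 2-fold in 26613 features. The remaining features that were not called were not bounded inside 2-fold and did not pass both thresholds of a call.

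Set beside rye against the other diploids, which use the same rye arrays and the same fit, rye sequences were higher in rye in 1600 cases and lower in 110 against T. urartu, where 10.6% of all features were higher and 12.6% lower. Against Ae. tauschii they were higher in 1453 and lower in 112, where the shares over all features were 9.44% and 12.4%. Ae. speltoides sequences gave 171 higher and 171 lower in rye against T. urartu and 150 and 191 against Ae. tauschii, beside the 58 and 278 against Ae. speltoides itself. Their median difference was 0.15 and 0.08 there and -0.10 here. T. monococcum sequences gave 223 higher and 917 lower against T. urartu, where their own close relative was the partner. Whether these sets differ between the comparisons was not tested.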

How the data were processed

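Cy3 signal was read on 12 single-colour NimbleGen arrays. Each feature has 1 intensity per array, on a linear scale, deposited by the authors after RMA (named in the submitters' processing notes without version or steps). The scale was read from the values (array medians of 1588 to 1667). After such normalization the arrays share nearly the same distribution, and a shift in total transcript is not visible. The 12 value columns of the raw probe table match no label and were not used. Its probe identifiers gave the probes per feature.

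No filter was applied, and 8 control features (7 sGFP and 1 random) were left out. Log2 values of all 12 arrays were fitted with a group-means model in limma 3.58.1 (lmFit and eBayes, R 4.3.3, with 6 residual and 2.97 prior degrees of freedom), which was tested on simulated data. At an unadjusted p under 0.05 limma gave 24217 features. The number of arrays limits the precision, and p-values measure the spread between seedling samples. That spread, and the SE with it, was pooled over all 6 plants, and replicates of rye and Ae. speltoides correlated least. Named are up to 2 higher and 2 lower features in each of 3 sets: rye sequences and Ae. speltoides sequences (largest difference among called features above the random control on all 4 arrays, without overlap), and called features with the dimmer plant at background (brightest). A fold called "at least" sets the brighter plant's mean against the random control of the dimmer plant's arrays. Members and rules were chosen with earlier results of these data known. Alternatives were 4 other scalings, a filter on dim features, a larger fold, the 4 arrays alone, other variance priors, a replicate block and leaving out each array. Replicate numbers are not said to pair samples. Figures were drawn with matplotlib 3.10.9.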

Additional observations from a re-analysis of the deposited data

Results flagged for a closer look

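The 7 sGFP control features were left out of the comparison. On the 4 rye and Ae. speltoides arrays, 5 of them were always above the random control. Over these arrays the median intensity was 2460 for sGFP_Barcds000001, 356 for sGFP_Barcds000002, 788 for sGFP_Barcds000003, 764 for sGFP_Barcds000004 and 177 for sGFP_Barcds000005. They are named because they were above that control. Their log2 differences of rye minus Ae. speltoides were 0.23, 0.28, 0.31, 0.21 and 0.12, beside 0.13 for the random control. The sources do not say what they read.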

How the results depend on the processing

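Of 305 recomputed values other than those that leave out an array, 271 kept their side of the test, stayed within 1.5 times (counts) or moved by less than the spread of the array pairs (medians), and 34 did not. With a log2 threshold of 2 fewer features pass by construction: 3976 in all, 1791 higher and 2185 lower in rye, with 628 and 16 from rye sequences, 13 and 112 from Ae. speltoides, 1014 and 1891 from bread wheat, 132 and 156 from T. monococcum, 4 and 10 from Ae. tauschii and Ae. squarrosa, and 750 higher in rye with Ae. speltoides at background. Leaving out the dimmest 25% left 1979 bread wheat features higher in rye, 86 higher and 126 lower with the dimmer plant at background, and a rye-sequence median of 0.39. Scaling to the random control gave medians of 0.27 (rye sequences), -0.23 (Ae. speltoides), -0.10 (bread wheat), -0.10 (T. monococcum), -0.20 (Ae. tauschii and Ae. squarrosa) and -0.06 (all features), a shift of the whole scale. Centring on the bread wheat features gave, in that order, 0.49, -0.01, 0.13, 0.12, 0.02 and 0.16. Cyclic loess gave 0.0 for bread wheat and 0.04 for all features. The 4 arrays alone, with fewer samples, called 8796 features and 34 rye sequences lower in rye, and did not call Scereale_ESTC000456. In that fit the limma adjusted p of the other named features rose to between 0.000948 and 0.00352. The replicate block called 10404 features, 10255 of them among the 10334, and every other count with it stayed within 1.5 times. Rye and Ae. speltoides arrays with the same number had deviations that correlated at 0.0297, within -0.0555 to 0.214 over all pairs of groups. Leaving out an array in turn, which takes the spread of the remaining array to be that of the other groups, moved these: 40 to 151 rye sequences lower in rye (151 without Ae. speltoides replicate 2), 8 to 16 Ae. tauschii and Ae. squarrosa sequences higher in rye, and medians of 0.40 to 0.44 (rye sequences), -0.12 to -0.07 (Ae. speltoides), -0.13 to 0.01 (Ae. tauschii and Ae. squarrosa), 0.0 to 0.05 (bread wheat), 0.01 to 0.04 (T. monococcum) and 0.03 to 0.08 (all features). Scereale_ESTC000456 ran from -4.14 to -1.38 and lost its call without rye replicate 2. Where no construction is named, the cause was not tested. Background correction from raw probes and slide as a block were not run, because the raw columns and slides could not be assigned to samples. Signal near the random control limits the features at background, whose order is not known.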

Other observations

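The 2 Ae. speltoides arrays differed from each other in a direction that varied with the source of the features. This was seen after the rye-derived features were counted. Of the 2489 features from Ae. speltoides sequences, 119 were at least 1 (log2) higher on replicate 1 and 13 on replicate 2. Of the 5731 from rye sequences 178 were higher on replicate 1 and 73 on replicate 2, and of the 42683 from bread wheat sequences 1468 and 1350. T. monococcum sequences also leaned to replicate 1, with 154 against 73. Ae. squarrosa (2 and 7) and Ae. tauschii sequences (3 and 11) leaned to replicate 2. Over all features the counts were 1924 and 1527. The rye arrays gave 28 and 16 for Ae. speltoides sequences and 137 and 48 for rye sequences.

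The features higher on Ae. speltoides replicate 1 were chosen by those arrays, and the 10 other arrays took no part in the choice. The 119 had medians of 11.89 and 8.93 on the Ae. speltoides arrays, 9.17 and 8.90 on the rye arrays, and 11.21 to 11.56 on the 8 arrays of the other plants. The 178 had medians of 11.49 and 8.75, then 9.55 and 9.43 in rye and 10.97 to 11.24 in the others. On both sets replicate 1 was near the wheats and goatgrasses and replicate 2 near or below rye. In limma, 0 of the 119 were called higher and 14 lower in rye than in Ae. speltoides, or 11.8% in all, against 13.5% of all Ae. speltoides sequences. Of the 178, 24 were called higher and 8 lower, a smaller share than the 24.0% of all rye sequences. Over all features 18.2% were called. These calls used the same Ae. speltoides arrays that chose the 2 sets. The gap between those arrays raises the spread of each chosen feature in the fit, which makes a call harder to reach. A smaller share of calls could thus follow from the choice alone, and no conclusion is drawn from these shares. What the features encode is not given in the files, and no cause was tested.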
